A study of Mus musculus with 2 samples.

Results

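Rab GTPases were examined in mouse CD4 T cells activated by antigen-presenting cells (APC) that did or did not carry a transgene for OX40 ligand (OX40L), a costimulatory protein. Members were all genes whose symbol is Rab followed by digits and at most one letter from a to d, on probe sets that the array annotation pairs with a single symbol. The rule gave 55 of 17097 genes, read by 99 of 45141 probe sets, and used no measured value. The first condition was T cells activated with APC from mice carrying an OX40L transgene (OX40L-Tg APC), and the other was T cells activated with wild type APC (Wt APC), with 1 array each. In both, naive Foxp3-negative CD4 T cells came from 6-week-old C57/Bl6 mice carrying Foxp3-eGFP, a reporter that makes regulatory T cells fluoresce, and were activated for 48 hours with soluble antibody to CD3. The APC were splenocytes depleted of CD3+ cells and treated with mitomycin C at 50 ug/ml to stop their division, and living CD4 T cells were sorted from the cultures afterwards. The promoter that drives the transgene and the number of mice behind each RNA are not given in the sources used here. With 1 array per condition, no difference has a replicate check, a standard error or a p-value.

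Rab proteins are small GTPases that mark the membranes of the secretory and endocytic routes. Exchange factors load a Rab with GTP so that it recruits effectors such as tethers and motors, GTPase-activating proteins switch it off, and prenylation with the help of escort and GDI proteins carries it to and from membranes. In T cells, Rabs are known for recycling the T cell receptor to the contact with an APC, for cytokine secretion and for the release of cytotoxic granules.

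Transcript levels of most Rab genes differed little between T cells activated with OX40L-Tg APC and those activated with Wt APC. Of the 55 genes, 42 reached the floor, the median intensity of all probe sets of an array, on at least 1 array. With OX40L-Tg APC, Rab20, Rab34 and Rab13 were higher by 1.5-fold or more, and Rab37 was lower by that size. These are 7.14% and 2.38% of the 42 Rab genes. Of all 10541 genes above the floor, 3.85% passed 1.5-fold upward and 3.36% downward. The upward Rab share was larger but rests on 3 genes, too few to read as a trait of the family. Rab20 and Rab34, or 4.76% of the Rab genes, passed 2-fold and 0 Rab genes were 2-fold lower. Of all genes, 1.56% and 1.17% passed in these directions. Differences are log2 values with OX40L-Tg APC minus those with Wt APC throughout. Their median was 0.07 over the 42 Rab genes and 0.02 over all genes above the floor.

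The sizes of the differences were like those of other genes for most Rab genes. The median absolute difference was 0.14 for the Rab genes and 0.14 for all genes, and 32 of 42 Rab genes (76.2%) and 73.4% of all genes were within 1.2-fold. Values were higher with OX40L-Tg APC for 26 Rab genes and lower for 16, that is 61.9% higher, while 54.0% of all genes were higher and 46.0% lower. A stricter background level was set at the 95th percentile of 57 genes listed as restricted to other organs, 43.5 units with OX40L-Tg APC and 40.6 units with Wt APC. Of that list, Csn2, Tff1 and Krt10 themselves exceeded the level in both conditions. On both arrays 30 Rab genes were above it, Rab20 and Rab37 were above it on 1 array, and 10 of the 42 were below it on both. Of those 30, 29 were within 1.5-fold, which is 96.7% against 94.1% of the 7797 genes that met the same condition. The exception was Rab34.

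**Figure D1:**
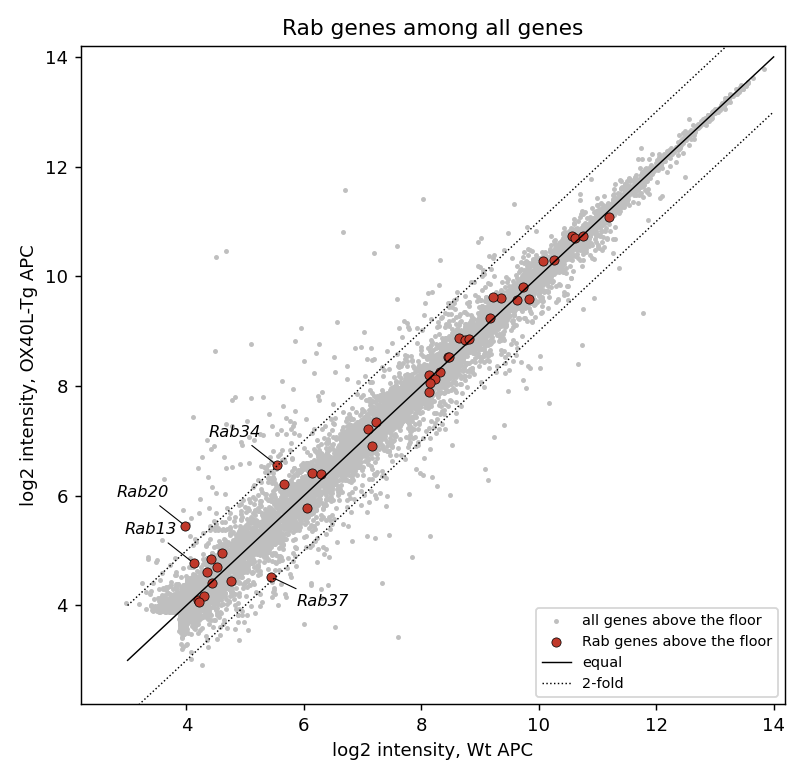
Log2 intensity of each gene with OX40L-Tg APC (vertical) against Wt APC (horizontal), 1 array each. Grey points are the 10541 genes above the floor and red points the 42 Rab genes among them. Most Rab genes lie along the line of equal values, and the 4 named genes past 1.5-fold all lie in the lower part of the range.

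**Figure D2:**
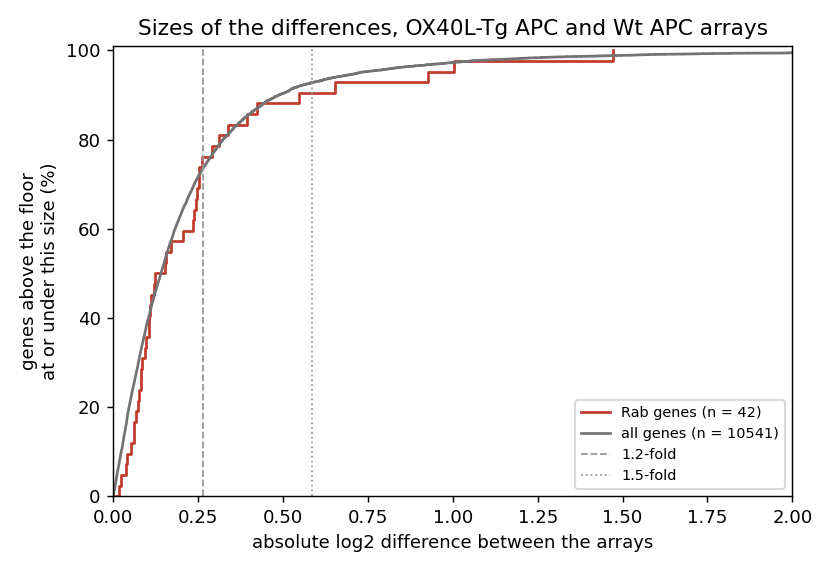
Percentage of genes above the floor (vertical) whose absolute log2 difference between the OX40L-Tg APC and Wt APC arrays is at or under the size on the horizontal axis, cut at 2. The curve of the 42 Rab genes runs close to that of all 10541 genes and crosses 1.2-fold at 76.2% against 73.4%.

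The arrays correlated with r = 0.993 over the log2 values of all probe sets. OX40 itself (Tnfrsf4) read 6262 units with OX40L-Tg APC and 5650.0 units with Wt APC. Tnfsf4, which encodes OX40L, read 128 units with OX40L-Tg APC and 154 units with Wt APC, a difference of -0.26. Of 12 measured T cell markers, 12 were above background in both conditions and 11 read lower with OX40L-Tg APC, with summed intensities of 19527 units with OX40L-Tg APC and 23688 units with Wt APC. B cell markers had 8 of 9 members above the floor higher, with sums of 1639 units with OX40L-Tg APC and 1102 units with Wt APC, and MHC class II genes 7 of 8 higher, with sums of 3841 units with OX40L-Tg APC and 2923 units with Wt APC. Among the listed B cell genes, Fcer2a read 519.9 units with OX40L-Tg APC and 259 units with Wt APC, 2.01-fold higher. Cd79b read 313 units with OX40L-Tg APC and 166 units with Wt APC, and Cd79a, Cd22 and Ms4a1 were higher by 0.23 to 0.44, while Pax5 and Cr2 were below the floor. Blk, above background with Wt APC only, went the other way at -0.15. Bank1 differed by 0.10, and Ebf1 and Vpreb3, below background on both arrays, by 0.99 and 0.06. Macrophage and monocyte genes were higher in 4 of 5 members above the floor, with sums of 234 units with OX40L-Tg APC and 198 units with Wt APC. Of these, Cybb was above background on both arrays, and the defining markers Adgre1 and Csf1r were below the floor. Dendritic cell genes were higher in 4 of 5 members above the floor, with sums of 1452 units with OX40L-Tg APC and 1163 units with Wt APC. Ccl22 and Fscn1 of that list were above background on both arrays, while Itgax and Zbtb46 were below it on both. Cd8b1 read 239 units with OX40L-Tg APC and 191 units with Wt APC. Cd8a, also higher, was below background on both arrays. In the other direction, erythroid genes were lower in 3 of 3 above the floor, but Alas2 and Klf1 were below background on both arrays. Hba-a1 read 207 units with OX40L-Tg APC and 1161 units with Wt APC. Eomes of the natural killer cell list read 65.1 units with OX40L-Tg APC and 221 units with Wt APC. The other measured genes of that list, Ncr1, Klrb1c and Klra8, were below background on both arrays. The part of these transcripts in the Rab values, such as the higher readings of Rab20, Rab34 and Rab13, was not tested.

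The labels' extraction protocol names adipose tissue, but 5 of 5 measured adipocyte genes lay below background in both conditions, with Adipoq, Fabp4 and Lep below the floor and Retn and Slc2a4 just above it. In such bulk RNA, a difference in the share of a cell type and a difference in RNA per cell cannot be told apart.

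Rab34 was the clearest difference among members measured above background on both arrays. It encodes a Golgi-associated Rab known for positioning lysosomes and for the formation of cilia. Its probe set with the higher mean level read 93.8 units with OX40L-Tg APC and 46.8 units with Wt APC, a 2.01-fold difference of 1.00. The other probe set read 79.2 units with OX40L-Tg APC and 50.6 units with Wt APC, a difference of 0.64. Both probe sets thus gave the higher value to OX40L-Tg APC and passed 1.5-fold, although the Wt APC values were only slightly above background. Rab20, a Rab of endosome and phagosome maturation studied mostly in macrophages, differed by 1.47, a size that rests on a Wt APC value below background. Its only probe set with a single symbol read 43.8 units with OX40L-Tg APC, at the edge of background, and 15.8 units with Wt APC, below it. Against the background level of the Wt APC array, Rab20 was at least 1.08-fold higher. A probe set that lists Rab20 together with another transcript, and is no member, was below the floor in both conditions, at 7.47 units with OX40L-Tg APC and 8.31 units with Wt APC.

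The bases before the transcription starts of these 2 genes are shown because they were the 2 Rab genes past 2-fold. The sequences are those of RefSeq for the mouse assembly GRCm38.p6, 250 bases ending just before an annotated start, with motif matches in capitals. For Rab34 this is chr11:78188177-78188426 on the plus strand, and for Rab20 chr8:11478641-11478890 on the minus strand.
Rab34: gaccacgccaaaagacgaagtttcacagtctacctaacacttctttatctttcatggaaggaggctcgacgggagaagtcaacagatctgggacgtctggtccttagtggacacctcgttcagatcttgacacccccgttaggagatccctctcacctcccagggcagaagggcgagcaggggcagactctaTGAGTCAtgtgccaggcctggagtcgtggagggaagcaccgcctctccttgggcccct
Rab20: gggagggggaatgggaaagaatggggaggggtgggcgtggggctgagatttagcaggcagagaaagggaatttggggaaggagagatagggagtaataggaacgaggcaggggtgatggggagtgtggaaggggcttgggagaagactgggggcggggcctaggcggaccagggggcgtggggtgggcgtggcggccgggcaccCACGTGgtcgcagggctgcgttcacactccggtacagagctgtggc

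The Rab34 stretch holds TGAGTCA, a match to the AP-1 motif TGANTCA, 58 bases before the start. The 250 bases before a second annotated Rab34 start, chr11:78188498-78188747, hold no match to any of the 4 motifs searched. The Rab20 stretch holds the E-box CACGTG 46 bases before the start. Both strands of 250 bases were searched for the AP-1 motif TGANTCA, the E-box CACGTG, the cyclic AMP response element TGACGTCA and GGGNNTTTC, the first 9 letters of a form of the NF-kB motif, and no matches overlapped in the printed sequences. Among 44 Rab genes with a promoter entry, 2 held the AP-1 motif, 5 the E-box, 2 the cyclic AMP response element and 4 the NF-kB letters. Those are 4.55%, 11.4%, 4.55% and 9.09% of the Rab genes, against 7.82%, 6.86%, 1.77% and 4.35% of all 27025 genes with an entry in the same order. Over all 32851 single promoters, the shares were 6.75%, 6.02%, 1.55% and 3.72%. The 4 Rab genes with the NF-kB letters were Rab15, Rab28, Rab9 and Rab3a, and these differed by -0.12, 0.06, -0.07 and 0.42. Such matches describe letters and not bound sites. Rab promoters were rich in G and C, with a median of 59.8% and 15 CpG against 52.4% and 6 CpG in all promoters. The medians were 60.6% and 15 CpG for Rab genes above the floor. For those not above it, with 8 promoters, they were 57.2% and 9.5 CpG. All promoters were taken whatever the intensity of the gene, and other genes above the floor were not compared.

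**Figure D3:**
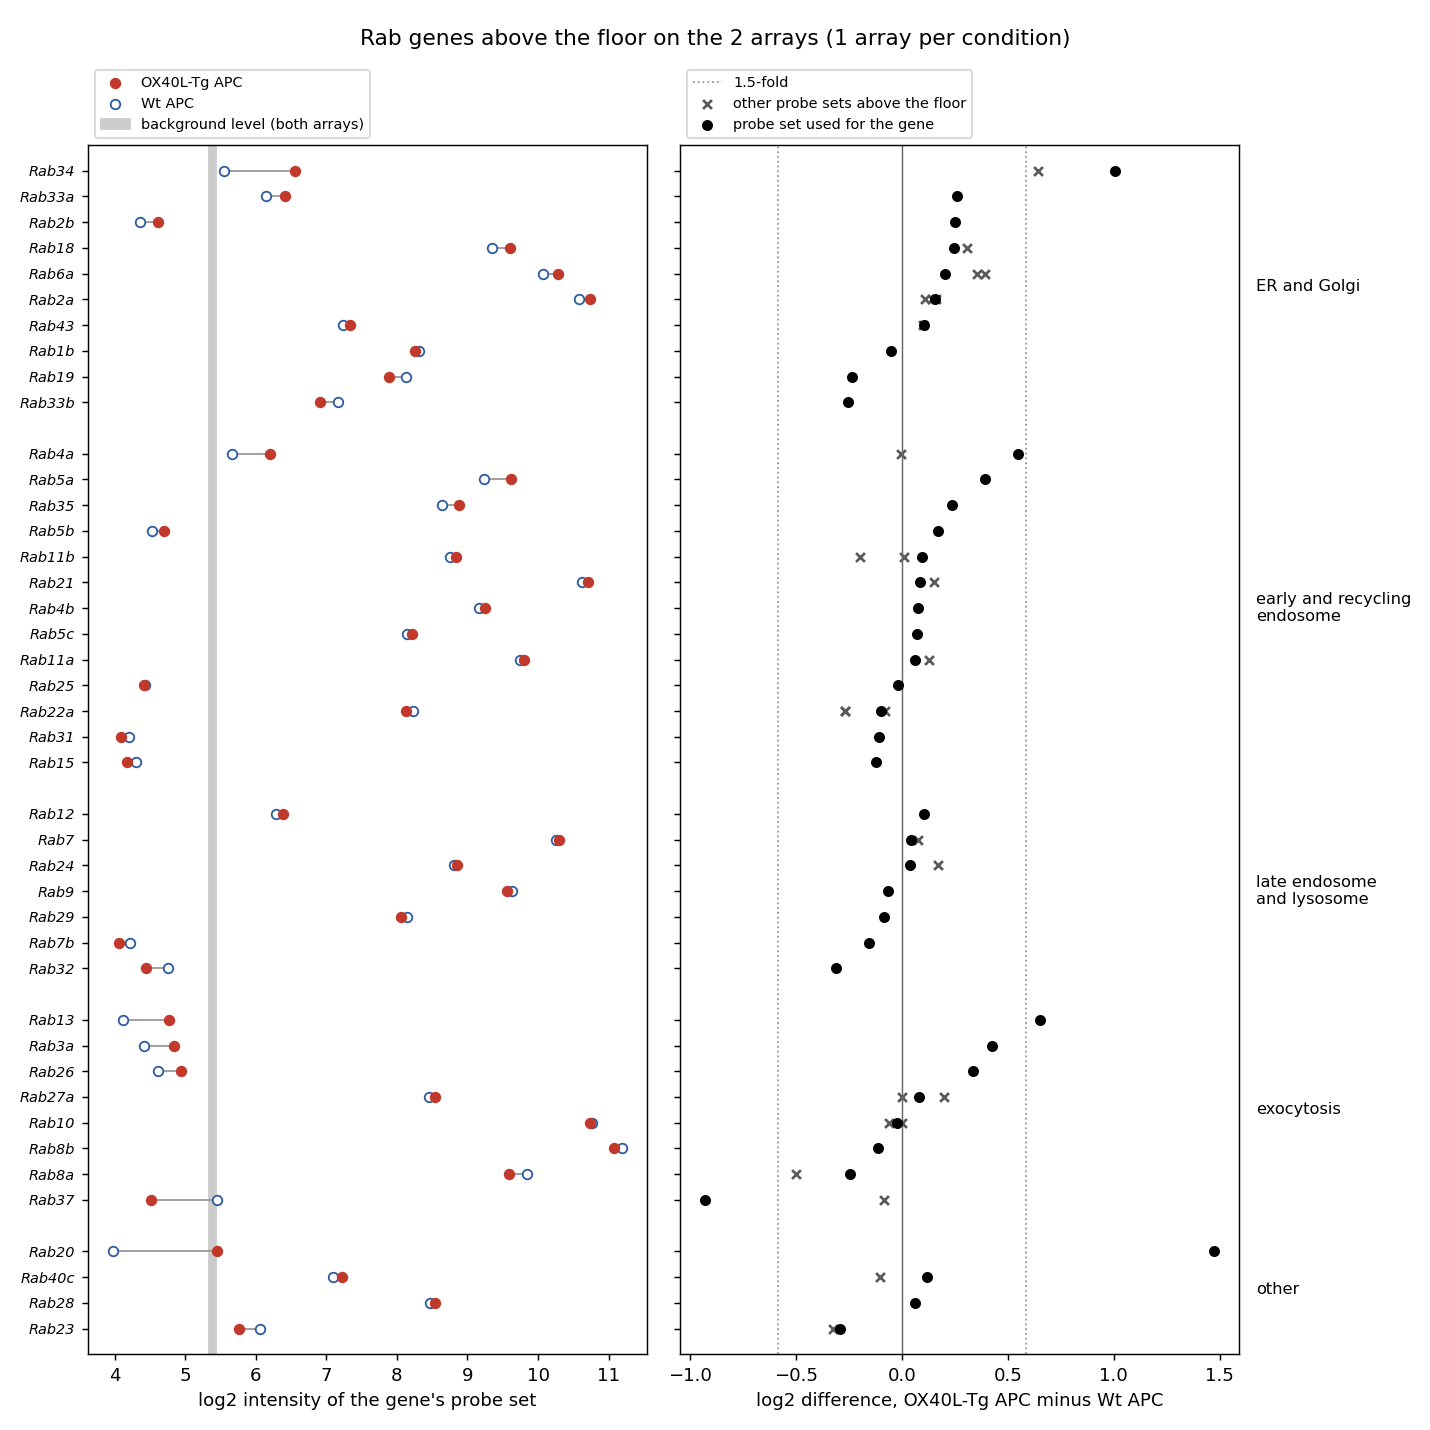
Left, log2 intensity of the probe set used for each of the 42 Rab genes above the floor, with OX40L-Tg APC (filled) and Wt APC (open), 1 array each, and the background level as a grey band. Right, the log2 difference of that probe set (dots) and of the gene's other probe sets above the floor (crosses), ordered by role and then by difference. Most pairs of points nearly coincide, and both marks of Rab34 lie to the right of 1.5-fold.

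Among the Rabs of the endoplasmic reticulum (ER) and Golgi, 10 of 15 were above the floor, with a median difference of 0.18. Of the 10, 7 were higher with OX40L-Tg APC, where 54.0% of all genes were higher. Rab6a, which governs traffic within and out of the Golgi, read 1242 units with OX40L-Tg APC and 1078 units with Wt APC. Its 3 probe sets differed by 0.20, 0.36 and 0.39. Rab18, a Rab of the ER and of lipid droplets, read 776 units with OX40L-Tg APC and 655 units with Wt APC, and its 2 probe sets differed by 0.25 and 0.31. Rab2a, which acts between ER and Golgi, read 1698 units with OX40L-Tg APC and 1524 units with Wt APC. Its 4 probe sets above the floor lay between 0.11 and 0.16, so these 3 genes showed small differences of 1 direction in every probe set above the floor. Rab33a and Rab33b, close relatives of the Golgi, differed in opposite directions. Rab33a read 85.0 units with OX40L-Tg APC and 70.9 units with Wt APC, a difference of 0.26. Rab33b, which binds the autophagy protein Atg16L1, read 121 units with OX40L-Tg APC and 144 units with Wt APC, a difference of -0.25. Rab19 differed by -0.23, and Rab1b, a Rab of ER-to-Golgi transport, by -0.05. Rab43, of the Golgi, differed by 0.11, and Rab2b, below background, by 0.25.

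Among the Rabs of early and recycling endosomes, 13 of 14 were above the floor and 0 passed 1.5-fold in either direction. Within 1.5-fold were 92.8% of all genes above the floor. The median difference of the 13 was 0.08, with 9 higher with OX40L-Tg APC, where 54.0% of all genes were higher. Rab4a, which directs fast recycling from early endosomes to the surface, was the Rab gene just outside 1.5-fold at 0.55, and Rab13 at 0.65 the one just inside. Rab4a read 73.9 units with OX40L-Tg APC and 50.6 units with Wt APC on a probe set marked as shared between transcripts. Its other probe set, below background on both arrays, read 31.2 units with OX40L-Tg APC and 31.3 units with Wt APC. The difference of Rab4a thus rested on 1 probe set. Its relative Rab4b differed by 0.08. Rab5a, the organiser of early endosome fusion, read 788 units with OX40L-Tg APC and 600.0 units with Wt APC, a 1.31-fold difference of 0.39 in its only probe set. Its relatives Rab5c and Rab5b differed by 0.07 and 0.17, with Rab5b below background. Rab35, which returns cargo such as the T cell receptor to the surface, read 470.5 units with OX40L-Tg APC and 399 units with Wt APC, a difference of 0.24.

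The slow recycling Rabs stood almost level. Rab11a read 891 units with OX40L-Tg APC and 854 units with Wt APC, a difference of 0.06. Rab11b read 459 units with OX40L-Tg APC and 429.9 units with Wt APC, a difference of 0.09, with 3 probe sets from -0.20 to 0.09. Rab21, which traffics integrins, differed by 0.08 and read 1666 units with OX40L-Tg APC and 1571 units with Wt APC. Rab22a, of early endosomes, was the member of this group with the most probe sets in 1 direction. It read 281 units with OX40L-Tg APC and 301 units with Wt APC, and its 4 probe sets lay between -0.27 and -0.08. Rab25, Rab31 and Rab15 were below background on both arrays, with differences from -0.12 to -0.02.

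The Rabs of late endosomes, lysosomes and related organelles had the narrowest range of any group with more than 4 genes above the floor. Of 9 members 7 were above the floor, and their differences ran from -0.31 to 0.10 with a median of -0.07. Within 1.2-fold were 6 of 7, where 73.4% of all genes were. Rab7, which drives fusion of late endosomes with lysosomes, read 1259 units with OX40L-Tg APC and 1223 units with Wt APC, and its 2 probe sets differed by 0.04 and 0.07. Rab9, of transport from late endosomes to the Golgi, read 756 units with OX40L-Tg APC and 791 units with Wt APC. Rab24, linked to autophagy, differed by 0.04 and Rab12, which directs transferrin receptor to lysosomes, by 0.10. Rab29, which takes part in recycling of the T cell receptor and is known to recruit the kinase LRRK2, differed by -0.08. The lowest value, -0.31, belonged to Rab32, a Rab of melanosomes and other lysosome-related organelles, which was below background at 21.8 units with OX40L-Tg APC and 27.0 units with Wt APC.

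The Rabs of exocytosis had the widest spread of the 4 groups named for a compartment or route by their SD of 0.49, and the wide values came from genes of low intensity. Of 11 members 8 were above the floor, 4 higher and 4 lower, where 54.0% of all genes were higher and 46.0% lower. Rab27a, which docks cytotoxic granules in killer T cells, read 372 units with OX40L-Tg APC and 352 units with Wt APC, a difference of 0.08. Its 3 probe sets above the floor lay between 0.00 and 0.20, and its relative Rab27b was below the floor. Rab10, of exocytosis of the glucose transporter GLUT4 in fat and muscle cells, read 1710.0 units with OX40L-Tg APC and 1737 units with Wt APC, and its 3 probe sets lay between -0.06 and 0.00. Rab8a, which carries vesicles from the Golgi and recycling endosomes to the surface, read lower, at 772 units with OX40L-Tg APC and 915 units with Wt APC, a difference of -0.25. A second, dim probe set of Rab8a differed by -0.50. Its relative Rab8b read 2162 units with OX40L-Tg APC and 2334 units with Wt APC, a difference of -0.11, so both genes of the pair lay on the same side.

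Rab37, Rab13, Rab3a and Rab26 were the low members of this group. Rab37, known from secretory granules of mast cells, read 22.9 units with OX40L-Tg APC and 43.6 units with Wt APC, a difference of -0.93. The first value was below background and the second just above it, so the fold has a bound of only 1.00. Its second probe set read 27.7 units with OX40L-Tg APC and 29.3 units with Wt APC, a difference of -0.08, so the size rested on 1 probe set. Rab13, known from tight junctions of epithelium, was below background in both conditions, at 27.4 units with OX40L-Tg APC and 17.4 units with Wt APC. Rab3a and Rab26, both of regulated secretion, differed by 0.42 and 0.34 and were also below background.

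Of the remaining 6 Rabs, 4 were above the floor. Besides Rab20, Rab23, a negative regulator of Hedgehog signalling, read 54.5 units with OX40L-Tg APC and 66.7 units with Wt APC. Its 2 probe sets above the floor differed by -0.29 and -0.32. Rab28, known from photoreceptors and cilia, differed by 0.06. Rab40c, whose protein joins a ubiquitin ligase through a SOCS box, read 149 units with OX40L-Tg APC and 137 units with Wt APC. Its probe sets differed in sign at 0.12 and -0.10, the second of them below background on both arrays.

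Probe sets of the same gene gave a check within these arrays, though they share the RNA and the hybridisation. Of the 18 Rab genes with 2 or more probe sets above the floor, 15 had all of them on the same side, 10 higher with OX40L-Tg APC and 5 lower. That is 83.3% of these Rab genes and 63.5% of the 4195 such genes in all. The median span between probe sets of a gene was 0.16 for Rab genes and 0.16 for all genes. The median absolute difference of 0.14 among the Rab genes was below that span. Rab4a, Rab11b and Rab40c were the 3 genes with probe sets of both signs, each through a probe set below background on both arrays. The 13 Rab genes not above the floor were Rab1a, Rab3b, Rab3c, Rab9b, Rab17, Rab27b, Rab30, Rab36, Rab38, Rab39, Rab39b, Rab40b and Rab44. They read 6.96 to 14.4 units with OX40L-Tg APC and 7.14 to 13.6 units with Wt APC. At these levels an intensity shows neither that a transcript is present nor that it is absent. Rab1a, for example, was read by only 1 probe set with a single symbol.

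Among genes that switch, carry or read the Rabs, Dennd3 and Dennd5a passed 2-fold with values above background on both arrays. Of 140 listed genes, 16 were not analysed here and 103 were above the floor, of which 4 passed 1.5-fold upward and 4 downward, or 3.88% in each direction against 3.85% and 3.36% of all genes. At 2-fold, 3 of the 103 were higher and 2 lower, or 2.91% and 1.94%, against 1.56% and 1.17% of all genes. The median difference of the 103 was 0.05. Among 28 exchange factors above the floor, 2 passed 1.5-fold upward and 1 downward. Dennd3, the exchange factor of Rab12, read 141 units with OX40L-Tg APC and 57.1 units with Wt APC, 2.47-fold higher. Dennd5a, a DENN-domain protein that binds Rab6 and activates Rab39, read 760 units with OX40L-Tg APC and 376 units with Wt APC, 2.02-fold higher. Rin3, an exchange factor of the Rab5 family, read 162 units with OX40L-Tg APC and 249 units with Wt APC, a difference of -0.62. Each of these 3 genes rests on a single probe set, above background on both arrays.

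Among 28 GTPase-activating proteins above the floor, 1 passed 1.5-fold in each direction. Of all genes above the floor, 3.85% passed upward and 3.36% downward. Tbc1d4, also called AS160, which switches off Rab10 and Rab8a in insulin-regulated GLUT4 traffic, differed by -2.04. It read 20.7 units with OX40L-Tg APC, below background, and 85.3 units with Wt APC, so that it was at least 1.96-fold lower against the background level. Its targets Rab10 and Rab8a differed by -0.02 and -0.25. Tbc1d2, a GTPase-activating protein of Rab7, differed by 0.59 but was below background in both conditions.

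Of the listed proteins known to bind Rab27, Sytl1, Unc13d, Sytl2, Sytl3 and Rph3al were above the floor and did not all differ in the same direction. Sytl1, a synaptotagmin-like protein, read 61.8 units with OX40L-Tg APC and 85.4 units with Wt APC, a difference of -0.47. Unc13d, which encodes the granule priming protein Munc13-4, read 201 units with OX40L-Tg APC and 235 units with Wt APC, a difference of -0.22. Sytl2, a granule tether of the synaptotagmin-like family, read 22.9 units with OX40L-Tg APC, below background, and 54.9 units with Wt APC, at least 1.26-fold lower. Sytl3, of the same family, read 54.8 units with OX40L-Tg APC and 25.7 units with Wt APC, the second value below background, at least 1.35-fold higher. Rph3al read 25.5 units with OX40L-Tg APC and 22.3 units with Wt APC, a difference of 0.19, and was below background on both arrays. Sytl1, Unc13d and Sytl2 therefore read lower and Sytl3 and Rph3al higher, where 46.0% of all genes above the floor were lower. Sytl2 and Sytl3 each had 1 value below background. All these genes belong to the 41 effectors above the floor, which had a median of -0.03. Of the 41, 1 passed 1.5-fold upward and 2 downward, against 3.85% and 3.36% of all genes. The other lower one, Rab11fip2, a Rab11 effector that binds myosin Vb, differed by -0.66 and was below background on both arrays.

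The enzymes and carriers that put Rabs on membranes stayed within 1.5-fold, as did 92.8% of all genes above the floor. Of 6 above the floor, 4 were higher with OX40L-Tg APC, where 54.0% of all genes were higher. The median difference of the 6 was 0.23. Chm, which encodes Rab escort protein, read 415 units with OX40L-Tg APC and 319 units with Wt APC, a difference of 0.38. Rabggta and Rabggtb, both subunits of the enzyme that attaches geranylgeranyl groups to Rabs, differed by 0.37 and 0.25. Gdi2, which extracts Rabs from membranes, read 4031 units with OX40L-Tg APC and 4396 units with Wt APC, a difference of -0.13.

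**Figure D4:**
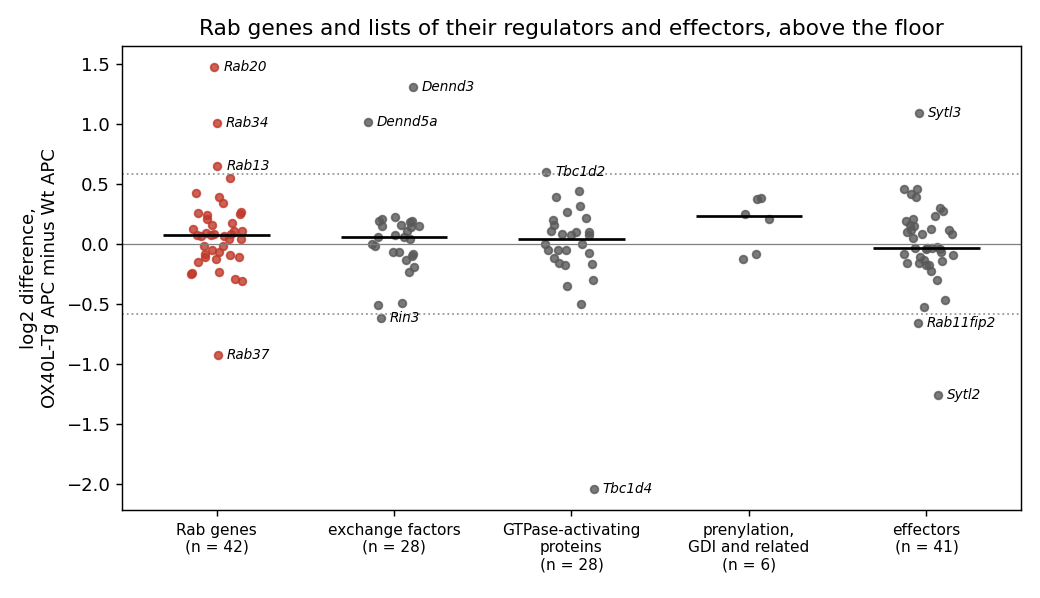
Log2 difference, OX40L-Tg APC minus Wt APC (vertical), of each gene above the floor among the Rab genes and 4 lists of their regulators and effectors, 1 array per condition. Points are genes, horizontal bars the median of each list, dotted lines 1.5-fold, and genes past 1.5-fold are named. Tbc1d4 lies at -2.04, with its OX40L-Tg APC value below background, and Dennd3 at 1.30, with both values above it.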

How the data were processed

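The authors deposited 1 intensity per probe set and array on a linear scale, made with RMA per the submitters' processing notes, from Affymetrix HT_MG-430 PM arrays. RMA corrects background, equalises arrays and summarises probes. Its version and the arrays normalized together are not given in the sources used here. Equalising arrays hides a change of total RNA, and RMA draws low intensities together. From these values, log2 was taken, and each gene took its probe set with the highest mean. Genes were named by the platform annotation, which gave 28898 probe sets 1 symbol and 551 several, which named no gene. The other 15692 probe sets had no symbol here and entered no gene, though they counted toward the floor. For 55 of 55 Rab genes the Entrez number carried the same symbol in RefSeq. Differences were described at 1.5-fold and 2-fold without a test. Where 1 value lay below the background level, the fold is a bound against that level. Any Rab gene could be named, and of the lists, those past 1.5-fold. Chm, Rabggta, Rabggtb, Gdi2, Sytl1, Unc13d, Rph3al and the marker genes were named after their values were seen. The exchange factor list also holds Rcc1l, not established as one. Members and lists were chosen with earlier results of these data known, and the promoters and motifs shown after the values were seen. Of genes listed by role, Rab3d, Rab6b, Rab14, Rab41 and Rab42 were not analysed here. The steps were tested on simulated data. Python 3.11.15, numpy 2.4.6, pandas 2.3.3, statsmodels 0.14.6 and matplotlib 3.10.9 were used. The number of arrays limits precision, and 9 alternatives were tried.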

Additional observations from a re-analysis of the deposited data

How the results depend on the processing

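No paired analysis was possible because each condition has 1 array and no test was made. Under the 9 alternatives, the direction of the median Rab difference and of Rab20, Rab34, Rab37 and Rab13 was kept wherever they had a value. For most of these settings the direction of the named genes could not have come out otherwise. Rab20 and Rab13 had 1 probe set with a single symbol each, so choices among probe sets left their values unchanged. Adding 16 units before log2 cannot change the sign of a probe set's difference. Changing or dropping the floor alters which genes are counted and not the difference of any gene. Dropping probe sets that may match several transcripts removed none of Rab20, Rab34, Rab37 or Rab13. The subtracted median of all genes, 0.02, was too small to change the sign of these genes. Averaging all probe sets left 0 Rab genes lower by 1.5-fold and 1 higher by 2-fold, with Rab37 at -0.51 and Rab34 at 0.82. With the floor at the 75th percentile, 0 of 25 Rab genes passed 1.5-fold in either direction, 0 passed 2-fold, 16 were higher, and 1 regulator or effector passed 1.5-fold in each direction. Among genes whose mean passed the background level, 1 Rab gene, Rab34, was at least 1.5-fold and 2-fold higher, 0 were lower, and 2 regulators or effectors were higher and 1 lower. A lowess correction (span 0.3) gave a median Rab difference of 0.045 and 1 Rab gene past 2-fold, as did subtracting the median of all genes for that count. With 16 units added before log2, 0 Rab genes were 2-fold higher, 2 regulators or effectors were at least 1.5-fold lower, and Rab20, Rab34, Rab37 and Rab13 differed by 0.91, 0.81, -0.61 and 0.38. Dropping probe sets that may match several transcripts, dropping the floor, or taking the probe set with the largest difference moved none of these counts by over 1.5 times. Signal over background limits Rab20, Rab37 and Rab13.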
